A study of Homo sapiens with 7 samples.

Results

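The genes described here encode the proteins of the cytosolic ribosome. They were the 79 of 10452 tested genes whose symbol is RPL or RPS followed by a number and at most 1 letter A, X or L, together with RPLP0, RPLP1, RPLP2 and RPSA. Of these 79 genes, 47 belong to the large subunit (RPL) and 32 to the small subunit (RPS, RPSA). RNA was sequenced from 7 lines of K562, cultured leukemia cells whose BCR::ABL1 fusion kinase drives chronic myeloid disease, with 1 library per line. The control lines were drug naive K562 and K562 kept in the DMSO vehicle. The early stage intermediates were K562 lines selected for growth in 10, 15 and 25 nM of the kinase inhibitor dasatinib (10, 15 and 25 nM DasR), and the late stage intermediates were those selected in 50 and 200 nM (50 and 200 nM DasR). All lines descend from K562, the DasR lines belong to 1 dose escalation, and no line was sequenced again, so p-values measure the spread between different lines of a group. The authors chose the early and late stage groups by clustering these same libraries.

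Total counts per library were 21007761 and 24037893 for the drug naive and DMSO lines, 27808639, 27844799 and 20059656 for the early stage lines in order of dose, and 20827519 and 21588772 for the late stage lines. Between 5.66% and 6.14% of them fell on the 79 ribosomal protein genes. Levels are given as CPM, the read count relative to the TMM scaled library total, differences as log2 fold changes against the controls with their standard errors (SE), and a gene was called at a false discovery rate (FDR) under 0.005. In bulk RNA, fewer cells with a transcript and less transcript per cell cannot be told apart.

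The eukaryotic ribosome joins a small subunit, which reads the mRNA, to a large subunit, which forms peptide bonds, and nearly every ribosomal protein is needed in the same amount per ribosome. Many of their mRNAs begin with a C and a run of pyrimidines, the 5′ terminal oligopyrimidine (TOP) element, through which mTOR signaling and the protein LARP1 control their translation. Loss of 1 copy of several of these genes causes Diamond-Blackfan anemia, a failure of erythroid cells, and K562 is used as a model with erythroid features.

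Start site sequences are shown for 10 of the members whose values are described in the results, because the TOP element is the feature that ribosomal protein mRNAs are best known to share. Each run holds 15 bases before and 15 bases from the first transcribed base on, 5′ to 3′ on the gene's strand. Bases are from RefSeq on GRCh38.p14, with the pyrimidine run from the first base in capitals. For RPL19 and RPL34, which have 2 listed starts, the start with the longest pyrimidine run is shown.
RPS26: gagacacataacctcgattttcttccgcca
RPL38: aacggaagtctcgttCTTTTTCgtcctttt
RPL19: gagcgagctctttccTTTCgctgctgcggc
RPS15: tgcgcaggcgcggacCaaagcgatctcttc
RPL27: ccggggtgaaaggttagcggaagtgtcctt
RPL34: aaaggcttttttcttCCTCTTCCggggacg
RPL4: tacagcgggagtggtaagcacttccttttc
RPLP1: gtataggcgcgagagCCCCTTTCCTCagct
RPLP0: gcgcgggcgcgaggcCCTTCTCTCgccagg
RPS21: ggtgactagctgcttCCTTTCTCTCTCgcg
The windows lie at chr12:56041903-56041932 (RPS26, plus strand), chr17:74203663-74203692 (RPL38, plus), chr17:39200308-39200337 (RPL19, plus), chr19:1438381-1438410 (RPS15, plus), chr17:42998404-42998433 (RPL27, plus), chr4:108620561-108620590 (RPL34, plus), chr15:66504841-66504870 (RPL4, minus), chr15:69452803-69452832 (RPLP1, plus), chr12:120201097-120201126 (RPLP0, minus) and chr20:62387088-62387117 (RPS21, plus).

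A C at the first base followed by 4 bases that are each C or T, read on the gene's strand, was found in 46 of the 63 members in the RefSeq table (73.0%), against 4.98% of 27242 other genes in the table and 7.33% of the 8276 others that were tested. Within 10 bases of the listed start the same letters were found in 57 members (90.5%) and in 38.3% of the other genes. A gene with several listed starts was counted if any of them matched, for members and other genes alike. RPL38, RPL34, RPLP0, RPLP1 and RPS21 matched at the listed start, and RPS26, RPL19, RPS15, RPL27 and RPL4 did not. A listed start can lie some bases away from the start used in these cells, which was not measured here. Of the 4 members called in the early stage, RPL38 holds the letters at its listed start, RPS26 and RPL19 do not, and RPL39L is not in the table, nor is RPL23.

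Erythroid markers were read first, since the labels call the cells erythroblasts. All 11 erythroid markers had counts, and their summed CPM was 4104 and 3543 in the drug naive and DMSO lines, 12173, 13579 and 10562 at 10, 15 and 25 nM, and 6765 and 4717 at 50 and 200 nM. In this sum the early stage lines were above all others. The most abundant marker over all lines was HBG2, a fetal globin. The embryonic globin HBZ was above HBG2 at 15 nM (2836 against 2267 CPM) and level with it at 25 nM (1914 against 1913 CPM). The markers did not move alike, since GATA1, the erythroid transcription factor, was at 207 and 215 CPM without dasatinib, 166, 204 and 191 CPM early and 235 and 291 CPM late, and the globin HBE1 at 10 nM (474 CPM) was below both controls (670 and 593 CPM). The summed CPM of 3 T cell markers was between 4.14 and 29.4 and that of 3 B cell markers between 2.83 and 10.1, with MS4A1, which marks B cells, at 0 counts in both controls. The 3 fibroblast markers, led by COL1A1 over all lines, summed to between 3.98 and 19.3 CPM. The highest sum was in the DMSO line, where COL1A2 was at 14.2 CPM, against 2.06 CPM in the drug naive line. The 4 monocyte and granulocyte markers, led by LYZ, summed to 56.6 and 39.98 CPM for the control lines, 103, 25.5 and 42.9 CPM early and 94.3 and 97.9 CPM late, with MPO and ELANE at 3 counts or fewer in every library. The 3 epithelial markers, led by KRT8, summed to between 415 and 677 CPM. The megakaryocyte gene ITGA2B was at 65.8 and 51.9 CPM for the control lines 13.4, 5.92 and 13.2 CPM early and 56.8 and 97.9 CPM late, while the platelet markers GP9 and PF4 were at 0.0490 CPM or less in both controls. The part of these marker differences in the values below was not tested.

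The levels of the members differed widely per length. CPM per kilobase of the deposited gene length had a median of 806 over members in the control lines, against 15.4 over all tested genes. With the longest transcript as the length, the member median was 339. On the deposited length, the middle members (from the lower to the upper quartile) lay between 479 and 1215. The highest were RPS18, a small subunit protein of the head domain, at 3485 and 3052 CPM per kilobase (drug naive, DMSO), RPS2 at 2797 and 2784, the stalk protein RPLP0 at 2572 and 2443, RPL4 at 1981 and 1880, and the stalk protein RPLP1 at 1871 and 1827. The means of RPL4 and RPLP1 differed by less than the gap between the controls for RPL4, and RPS18, RPS2 and RPLP0 lay above both in each line. The lowest were RPS27L, a p53-regulated paralog of RPS27, at 28.3 and 26.8, RPL39L, a paralog of RPL39 that is abundant in testis, at 31.2 and 31.3, RPS26 at 91.2 and 101, RPL28 at 123 and 100.01 and RPL27A at 163 and 161. The span from lowest to highest was 118.7-fold on the deposited length, 660.8-fold on MANE Select transcripts and 347.7-fold on the longest transcript. RPL28 and RPL27A have deposited lengths of 5185 and 4879 bases, the length enters the value directly, and on MANE Select transcripts RPL4 moved from rank 4 to rank 25 and RPLP1 from rank 5 to rank 36, while RPS18, RPS27L, RPL39L and RPS26 kept their ranks.

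**Figure D1:**
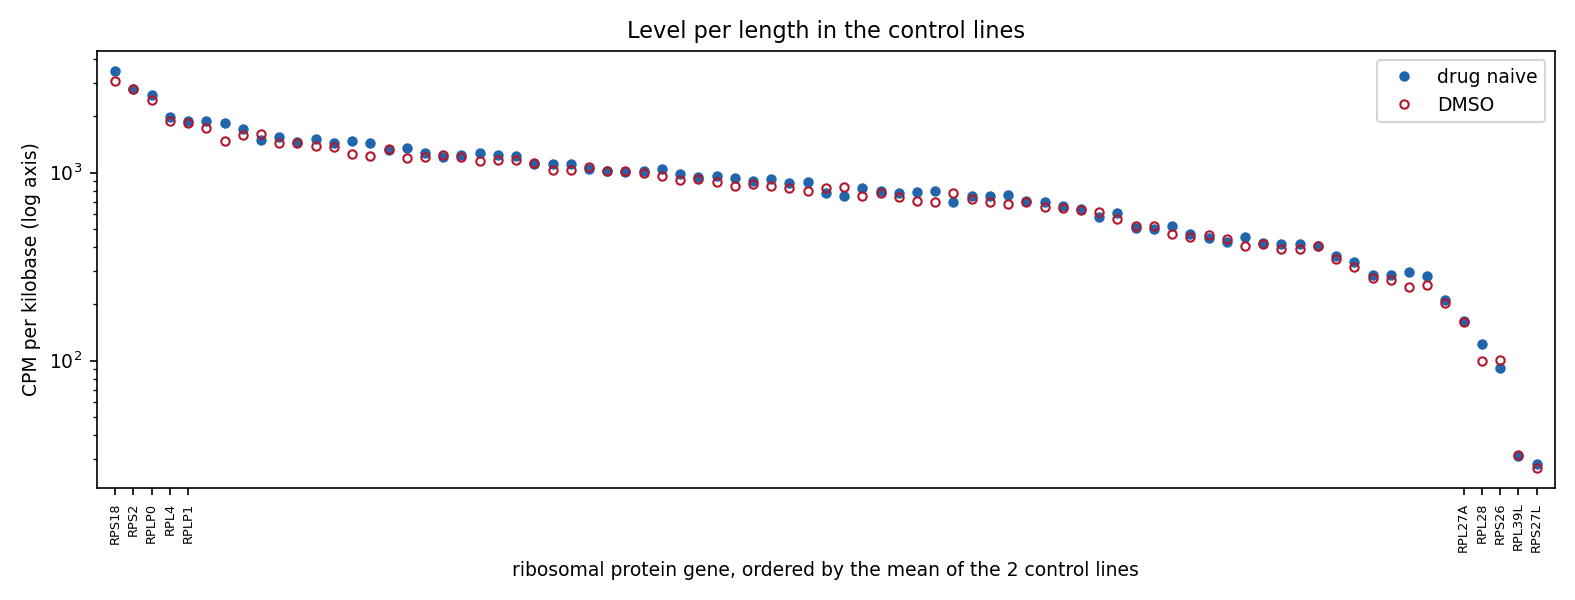
Level of the 79 ribosomal protein genes in the drug naive and DMSO lines, as CPM per kilobase of deposited gene length on a log axis, ordered by the mean of both lines, with the 5 highest and 5 lowest named. The quartiles lie at 479 and 1215 CPM per kilobase, and RPS26, RPL39L and RPS27L form the low end.

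In each resistant line the ribosomal protein genes stayed close to their control levels. The share of all counts on the 79 genes was 6.02% in the drug naive and 5.93% in the DMSO line, 6.14%, 6.05% and 5.73% at 10, 15 and 25 nM, and 5.69% and 5.66% at 50 and 200 nM. The early stage lines overlapped the controls, and both late stage lines lay below every other line. The exact 95% binomial intervals were narrow, for example 5.65% to 5.67% at 200 nM, and cover counting error only. The median over members of log2 CPM minus the control mean was 0.04 and -0.04 in the controls, 0.07, 0.02 and -0.07 in the early stage lines and -0.02 and -0.07 in the late stage lines. The distance between the controls (median difference DMSO minus drug naive -0.07, SD over members 0.094) was larger than each of these medians.

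The spread among the members was also narrow. The SD over members of log2 CPM minus the control mean was between 0.233 (25 nM) and 0.274 (15 nM) in the resistant lines, against 0.784 (200 nM) to 1.06 (15 nM) over all tested genes. Of the 79 members, 62, 65 and 66 lay within 0.25 of the control mean on the log2 scale in the early stage lines in order of dose, and 63 and 57 in the late stage lines. In the 200 nM line, which had the fewest, 38.1% of all genes did.

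**Figure D2:**
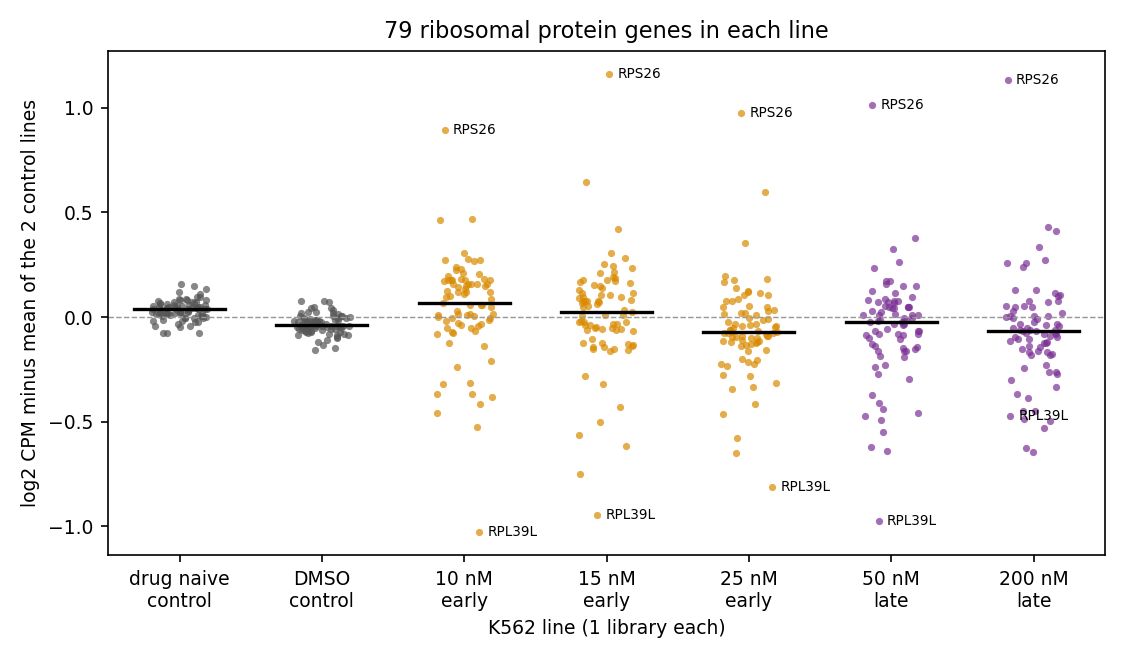
Log2 CPM minus the mean of the 2 control lines for each of the 79 ribosomal protein genes (points) in each K562 line, with the median over members as a bar. The points of each resistant line center near 0, with RPS26 alone near 1 above and RPL39L lowest in all but the 200 nM line.

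The early stage intermediates, which had already passed through lower doses of the escalation, were compared with the control lines. Of the 79 members, 2 rose and 2 fell (5.06%), against 18.0% of all 10452 genes (7.92% higher, 10.1% lower) at the same FDR by edgeR's quasi-likelihood test. RPS26 and RPL38 rose, and RPL19 and RPL39L fell. The median log2 fold change over members was 0.00 (0.00 over all genes), 40 members were higher and 39 lower, and 66 of 79 lay within 0.25 of 0 (83.5%, against 38.1% of all genes). At an FDR under 0.05 the members numbered 3 higher (RPS26, RPL38, RPS15) and 7 lower (RPL12, RPL19, RPL23, RPL23A, RPL27, RPL39L, RPL4), or 12.7% against 46.5% of all genes (22.6% higher, 24.0% lower). The groups did not overlap for 15 members that were higher (35.4% of all genes) and 12 that were lower (35.2% of all genes). RPL22 at 0.23 and RPL35 at 0.20 completed the highest members and RPS3A at -0.33 the lowest, none of them called. When either control line was left out, none of the 79 passed 0.005, and with the 15 or the 25 nM line left out 1 did.

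RPS26, a small subunit protein at the mRNA exit that contacts bases before the start codon, changed most. It was at 62.2 and 69.0 CPM in the drug naive and DMSO lines, 122, 147 and 129 CPM at 10, 15 and 25 nM, and 132 and 144 CPM at 50 and 200 nM. Every resistant line was above both controls, with no overlap. The log2 fold change was 1.01 in the early stage (SE 0.11, FDR 0.000746) and 1.07 in the late stage (SE 0.12, FDR 0.00142). RPS26 lies at hg19 chromosome 12 from 56435135 to 56438481, and the median early fold change of the 100 other tested genes within 5 Mb was -0.04 (log2). The genome holds 59 pseudogenes named after it, and the counted RPS26P11 had 63 and 60 counts in the controls, 104, 133 and 83 in the early stage and 88 and 82 in the late stage lines. Reads shared between these copies cannot be told apart here, so the value of RPS26 is uncertain to that extent. The early FDR was at most 0.00991 and the late at most 0.0144 over all alternatives, both without 1 library.

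RPL38, a large subunit protein known for its part in translating Hox mRNAs in mice, was at 197 and 203 CPM for the control lines, 277, 312 and 302 CPM in the early stage and 251 and 269 CPM in the late stage lines. All resistant lines were above both controls. On the log2 scale it differed by 0.57 (SE 0.09, FDR 0.00256) in the early stage and 0.38 (FDR 0.0217) in the late stage. The early FDR rose to 0.0223 at most without 1 library, and 6 pseudogenes carry its name.

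RPL19, a large subunit protein that reaches across to the small subunit, was at 886 and 911 CPM for the control lines, 691, 666 and 653 CPM in the early stage and 639 and 636 CPM in the late stage lines. Each resistant line was below both controls, and the lines within a group were close to each other. The log2 fold change was -0.42 (SE 0.07, FDR 0.00370) in the early stage and -0.49 (SE 0.08, FDR 0.00498) in the late stage. The late FDR lies just inside the threshold, and the call was lost with RLE scaling, total counts, scaling without the members, a filter of 1 CPM, no filter, a fit of the 2 groups alone, and without any 1 of the 7 libraries. The early call was lost with no filter, in a fit of the 2 groups alone and without any 1 library, with an FDR of at most 0.0214, while its fold change stayed between -0.45 and -0.40.

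RPL39L, the paralog of the exit tunnel protein RPL39, was at 21.9 and 22.0 CPM for the control lines, 10.7, 11.4 and 12.5 CPM in the early stage and 11.1 and 15.8 CPM in the late stage lines. Every resistant line was lower than the controls. The log2 fold change was -0.93 (SE 0.17, FDR 0.00488) in the early stage and -0.71 (FDR 0.0278) in the late stage, and the early call was lost with total counts, a filter of 1 CPM, and when any control or early stage line was left out. RPL39 itself had log2 fold changes of 0.19 early and -0.02 late, neither called. RPL39L lies at hg19 chromosome 3 from 186838736 to 186898696, and no pseudogene carries its name.

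**Figure D3:**
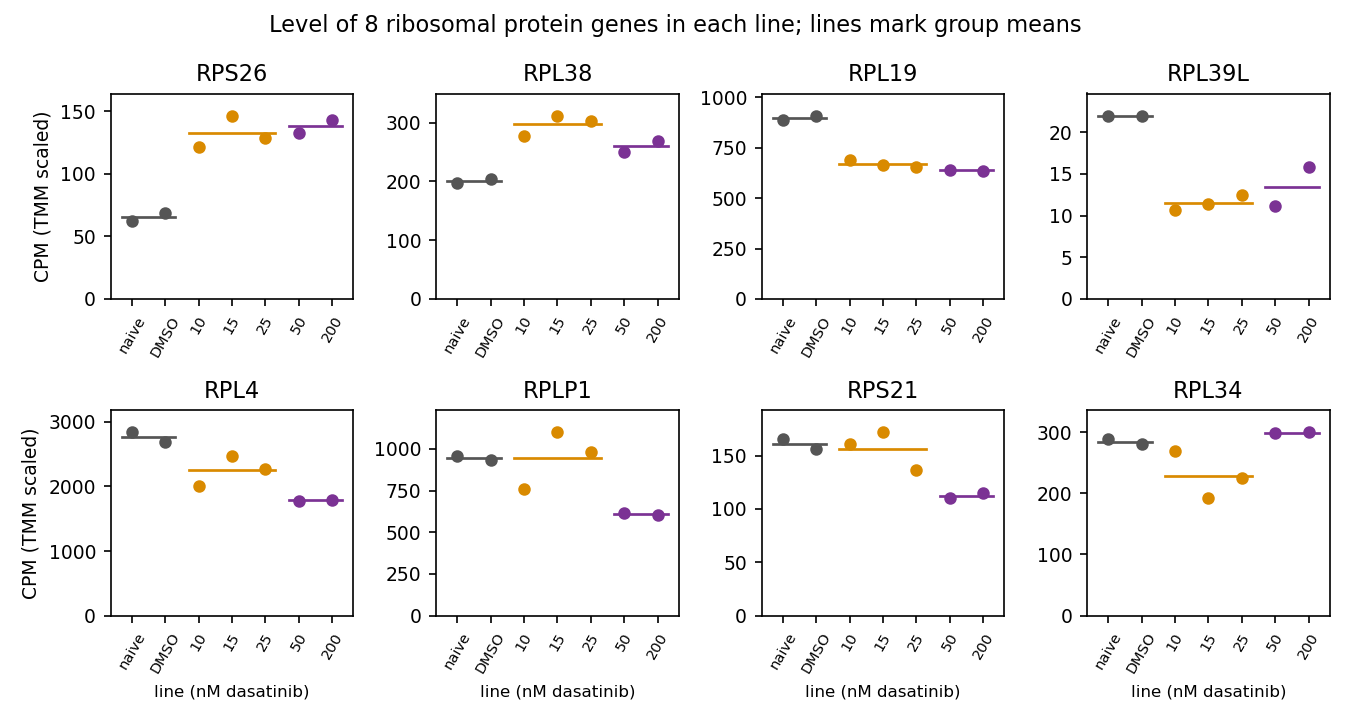
TMM scaled CPM of 8 ribosomal protein genes in each line (points, 1 library each) with group means as lines, axes from 0. RPS26 goes from 62.2 and 69.0 in the controls to 122 or more in all resistant lines, RPL19 and RPL39L lie below the controls in every resistant line, and RPL4, RPLP1 and RPS21 are lowest in the 50 and 200 nM lines.

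In the late stage intermediates 1 member rose (RPS26) and 1 fell (RPL19), 2.53% of the 79, against 7.98% of all genes (3.42% higher, 4.56% lower). The member median was -0.04 (0.00 over all genes), with 29 members higher and 50 lower, and 61 of 79 lay within 0.25 of 0 (77.2%, against 41.3% of all genes). At an FDR under 0.05, 3 were higher and 11 lower (17.7%, against 33.9% of all genes, 16.2% higher and 17.6% lower). The groups did not overlap for 16 members that were higher (33.4% of all genes) and 27 that were lower (35.2% of all genes). The lower ones at this FDR included RPL10A, RPL12, RPL19, RPL23, RPL23A, RPL27, RPL39L, RPL4, RPLP1 and RPS21. RPL8 at 0.33 and RPL6 at 0.25 were among the highest members, neither called. RPL4, a protein that lines the exit tunnel, was at 2836 and 2693 CPM for the control lines, 2010, 2475 and 2275 CPM in the early stage and 1775 and 1792 CPM in the late stage lines, and its late log2 fold change was -0.63 (SE 0.11, FDR 0.00550). RPL4 missed the threshold narrowly, and both late stage lines lay below all others. No member was called when either control line, the 25 nM line or either late stage line was left out.

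Since the early and late comparisons share the control lines, the difference was tested directly, late against early. None of the 10452 genes passed the FDR of 0.005 by edgeR's quasi-likelihood test (percent called 0), although 3450 had an unadjusted p under 0.05, 9 of them members. DESeq2 called 1135 genes, 2 of them members, and limma voom called none. At an FDR under 0.05, 3 members were lower in the late stage (3.80%, against 12.7% of all genes, 6.60% higher and 6.10% lower) and none was higher. These were RPLP1 (log2 fold change -0.63, SE 0.15, FDR 0.0373), RPS21 (-0.48, SE 0.11, FDR 0.0370) and RPLP0 (-0.35, SE 0.09, FDR 0.0488), followed by RPL4 (-0.34). Of all members, 57 had a value below 0 and 22 above, with a median of -0.07, where 50.3% of the other placed genes were below 0. Both late stage lines were below all early stage lines for 29 members (26.9% of all genes) and above them for 6 (26.4% of all genes).

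RPLP1, an acidic protein of the stalk that recruits elongation factors, was at 958 and 936 CPM for the control lines, 760, 1099 and 981 CPM in the early stage and 615 and 605 CPM in the late stage lines. The early stage lines lay on both sides of the controls, with the 10 nM line lowest, and the late stage lines were below all others. RPS21, a small subunit protein, was at 166 and 156 CPM for the control lines, 161, 172 and 136 CPM in the early stage and 110 and 115 CPM in the late stage lines, again lowest late. RPLP0, the stalk base, was at 3250 and 3088 CPM for the control lines, 3100.3, 3583 and 3143 CPM in the early stage and 2707 and 2426 CPM in the late stage lines. At the other end were RPL34 (0.39), RPL7 (0.26), RPL8 (0.24), RPL24 (0.23) and RPL39L (0.23), none of which passed an FDR of 0.05.

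Several of the lower members lay near each other. RPL23A, RPL23, RPL19 and RPL27 lie within 14.1 Mb of hg19 chromosome 17, from 27047003 to 41154976, a segment bounded by these genes and chosen after their values were seen. Their early log2 fold changes were -0.30, -0.58, -0.42 and -0.48, and their late ones -0.45, -0.44, -0.49 and -0.42. The 123 other tested genes of the segment had a median of -0.55 in the early stage, where 105 were lower (85.4%, against 49.5% of all placed genes), 41 fell and none rose. In the late stage their median was -0.42, with 109 lower, 20 fallen and none risen. The 486 other genes of chromosome 17 had a median of 0.13 early and 0.04 late. Line by line the segment median minus the controls was -0.52, -0.57 and -0.49 at 10, 15 and 25 nM and -0.48 and -0.44 at 50 and 200 nM, so the shift was similar in every resistant line. RPL38 and RPL26, the other members on chromosome 17, lie outside the segment, and the 74 genes near RPL38 had an early median of 0.26.

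RPL4, RPLP1 and RPS27L lie on chromosome 15 between 63418071 and 69748544 (hg19). Their late log2 fold changes were -0.63, -0.63 and -0.37. The 327 other tested genes of chromosome 15 had a late median of -0.55, with 292 lower (89.3%, against 49.8% of all placed genes), 52 fallen and 2 risen. In the early stage their median was -0.12. By line it was -0.31, 0.03 and -0.10 in the early stage lines in order of dose and -0.49 and -0.60 in the late stage lines. RPL4 and RPLP1, whose CPM are given above, were likewise lowest in the 10, 50 and 200 nM lines. RPS21 on chromosome 20 had 49 neighbors within 5 Mb with a late median of -0.40, beside its own -0.52. On chromosome 4 the 348 other genes had medians of -0.04, -0.31 and -0.16 in the early stage lines in order of dose and 0.00 and -0.03 in the late stage lines. The members there differed, with RPL34 at 193 and RPS3A at 749 CPM at 15 nM, below their controls (289 and 280.0, 1219 and 1081), and RPL9 at 1101 CPM, between its own (1106 and 1083).

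**Figure D4:**
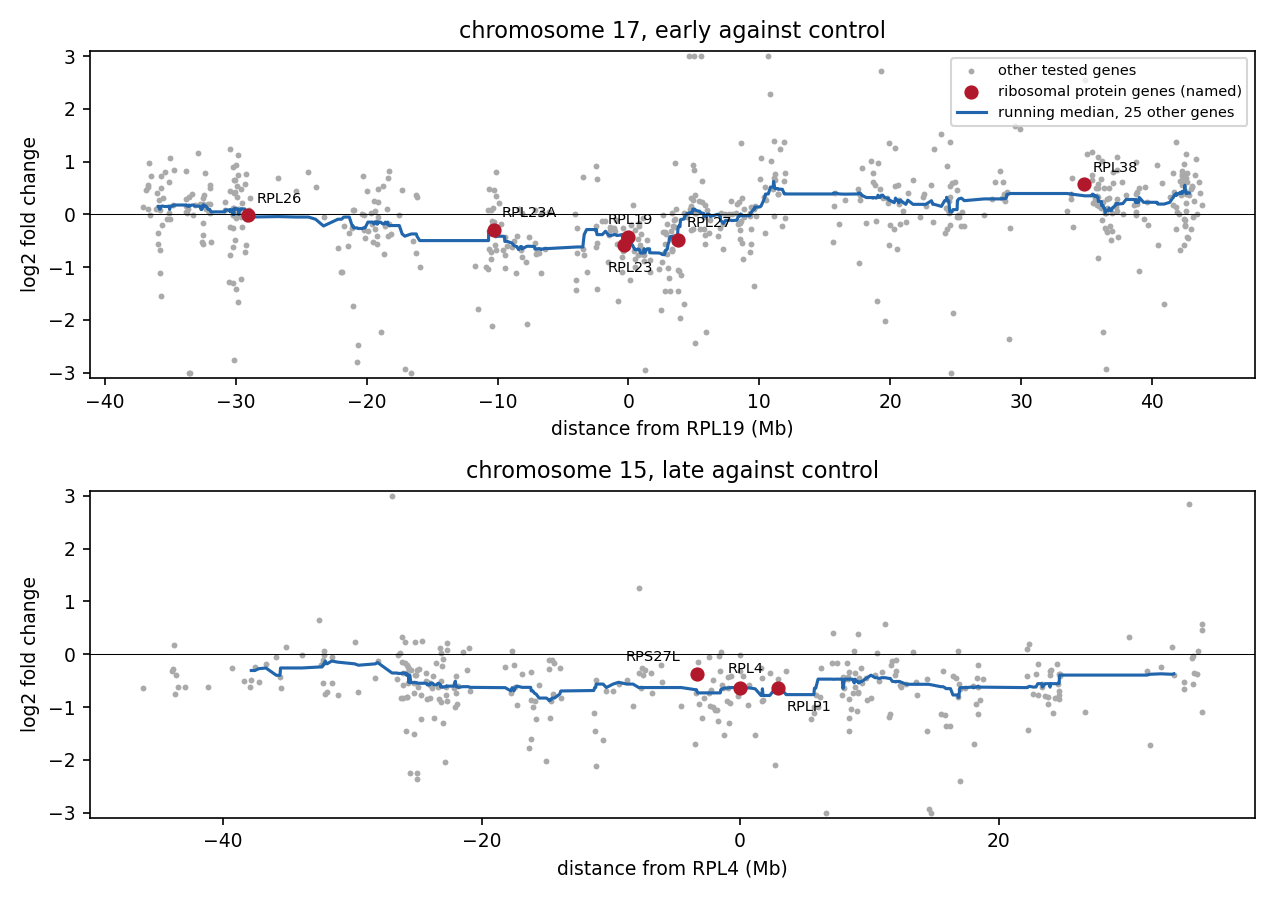
Log2 fold change of each tested gene against distance in Mb from RPL19 on chromosome 17 (early against control) and from RPL4 on chromosome 15 (late against control). Red points are the ribosomal protein genes named on the plot, gray points other genes (values beyond 3 drawn at the edge) and the blue line is the running median of 25 other genes. RPL23A, RPL23, RPL19 and RPL27 lie in a stretch where the median is below 0, and nearly all of chromosome 15 is below 0.

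Over all 79 members, the log2 fold change and the median of the other genes within 5 Mb had a Pearson coefficient of 0.445 (Spearman 0.388) in the early stage, 0.540 (0.326) in the late stage and 0.578 (0.358) late against early. The coefficients are across genes, share the same 7 libraries, and neighbors of nearby members overlap, so they are descriptions. They rested on chromosomes 15 and 17 in the comparisons with the controls, since without these the 69 other members gave 0.194 early and 0.163 late, and 0.437 late against early. RPS26 and RPL39L departed most from their neighbors. RPS26 was at 1.01 with its neighbors at -0.04, and RPL39L at -0.93 with its neighbors at -0.08 (early, log2). DNA copy number was not measured here, and its part in these values was not tested. Without chromosome 15, the members took 5.63% and 5.54% of counts in the controls, 5.85%, 5.66% and 5.38% in the early stage and 5.44% and 5.40% in the late stage lines, so the late stage lines then lay between the 25 nM line and the controls.

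**Figure D5:**
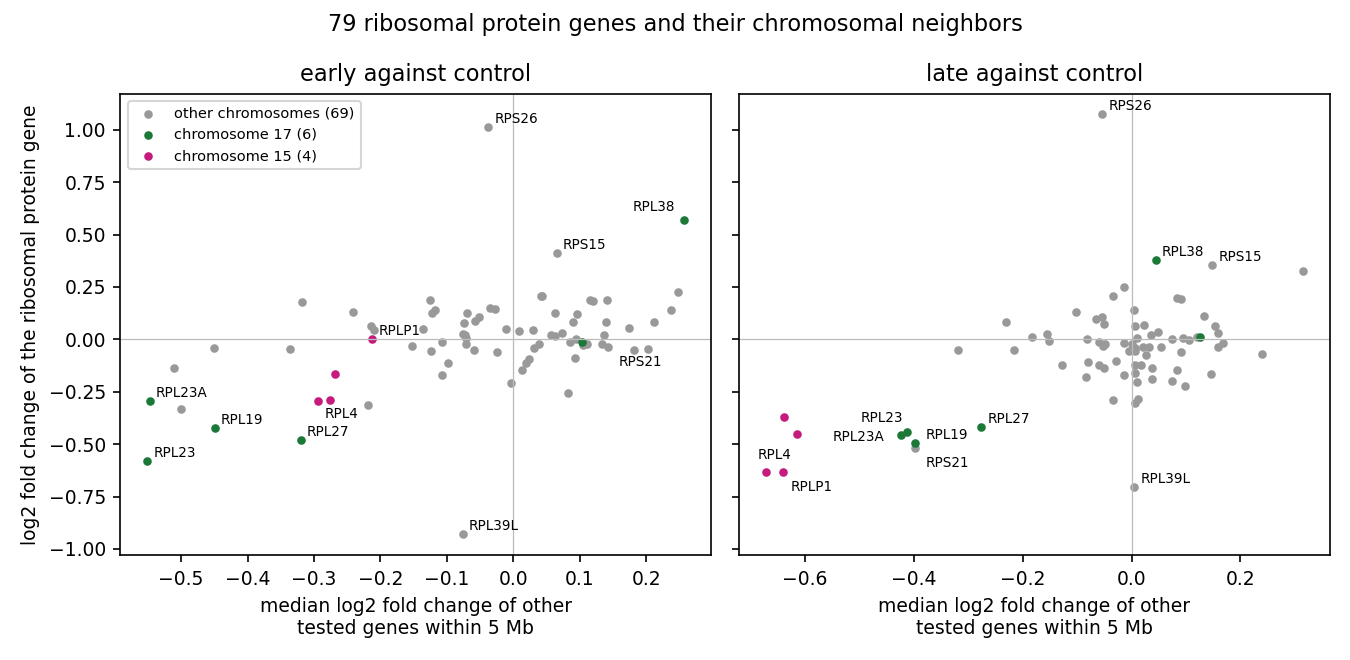
Log2 fold change of each of the 79 ribosomal protein genes against the median log2 fold change of other tested genes within 5 Mb, for the early and the late stage. The chromosome 17 segment members and, in the late stage, the chromosome 15 members sit at the lower left, while RPS26 and RPL39L lie far from 0 with neighbors close to 0.

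The members were then grouped by their place in the ribosome. The counts of calls in these lists and in those that follow are to be read beside 7.92% higher and 10.1% lower over all genes in the early stage and 3.42% and 4.56% in the late stage, and in lists this short 1 call is near those shares. The stalk, where elongation factors dock, comprises RPLP0, RPLP1 and RPLP2 on a base that includes RPL12. None of its 4 members was called in any comparison. RPL12 was -0.26 early and -0.29 late (FDR 0.0262 and 0.0330), RPLP0 was 0.05 and -0.30 (FDR 0.692 and 0.0513), RPLP1 was 0.00 and -0.63 (FDR 0.998 and 0.0222), and RPLP2 was 0.09 and 0.01 (FDR 0.515 and 0.962). The stalk median was 0.02 early and -0.30 late, beside 0.00 in both over all genes. RPL5 and RPL11, which bring 5S rRNA into the large subunit and bind MDM2 when ribosome assembly is disturbed, were at -0.05 and 0.04 early and -0.04 and 0.01 late, with neither called. RPL5 was at 1261 and 1202 CPM for the control lines and between 1130 and 1272 CPM in the resistant lines. RPL11 was at 1037 and 968 CPM for the control lines and between 980 and 1090 CPM in the resistant lines.

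Of the 8 proteins at the exit tunnel, 1 fell in each stage (RPL19; over all genes 10.1% fell early and 4.56% late), and RPL22 was the highest early at 0.23 (not called). The list median was -0.01 early and -0.02 late. Of 3 large subunit proteins near the peptidyl transferase center none was called. RPL3 was -0.11 early and RPL8 0.09. Of 7 small subunit proteins at the mRNA channel and decoding site, 1 rose in each stage (RPS26), and RPS15, which reaches toward the decoding site, was at 252 and 241 CPM for the control lines, 339, 329 and 314 CPM early and 319 and 310 CPM late. RPS15 was above both controls in every resistant line, with FDR values of 0.00548 early and 0.0184 late, and RPS3A was the lowest of the list early at -0.33 (not called). Of the 19 genes listed for Diamond-Blackfan anemia, 1 rose (RPS26) and none fell in either stage, with medians of 0.04 early and -0.02 late. RPL27 was the lowest of these early. Of 6 genes lost or mutated in leukemia or myelodysplasia, none was called, RPS15 was the highest early, and RPL10, at the peptidyl transferase center, was the lowest with -0.09.

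Of 8 ribosomal protein paralogs, 6 passed the filter on low counts, RPL39L fell in the early stage, and none rose. Of the 6, 4 had values above 0 in each stage. RPL36AL was at 54.6 and 49.4 CPM for the control lines, 71.9, 67.9 and 72.4 CPM in the early stage and 75.1 and 84.0 CPM in the late stage lines, with FDR values of 0.00809 and 0.00541 and log2 fold changes of 0.44 and 0.61. RPL26L1 was at 0.67 early (FDR 0.0219) and 0.58 late (FDR 0.0594), RPL22L1 at 0.18 and 0.41, RPL7L1 at 0.18 and 0.22, and RPS27L at -0.29 and -0.37, none of them called. Their 8 main counterparts (paralog partners) had medians of 0.05 and -0.03, with none called. Reads of closely similar paralogs can be split or dropped in counting. Of the ribosomal proteins made as fusions, RPS27A, joined to ubiquitin, was at 0.18 and 0.08, and FAU, whose fusion partner is ubiquitin-like, at 0.12 and 0.10 (early and late, neither called).

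Genes that act on ribosomal proteins were read from lists for contrast. Of 9 dedicated chaperones, which carry single ribosomal proteins to the assembly sites, 3 rose and none fell in each stage (over all genes 7.92% rose early and 3.42% late), and all 9 had values above 0 in both, with medians of 0.56 early and 0.65 late. RRS1, which helps load the 5S particle, was at 10.1 and 13.5 CPM for the control lines, 34.6, 37.2 and 37.2 CPM early and 31.8 and 31.4 CPM late, with log2 fold changes of 1.62 (FDR 0.000412) and 1.42 (FDR 0.00139). GRWD1, the chaperone of RPL3, was at 24.2 and 32.7 CPM for the control lines, 62.1, 74.1 and 72.7 CPM early and 61.6 and 62.8 CPM late, with log2 fold changes of 1.29 (FDR 0.000905) and 1.13 (FDR 0.00310). BCCIP, the chaperone of RPL23, was at 63.8 and 72.4 CPM for the control lines, 113, 127 and 124 CPM early and 116 and 118 CPM late, with log2 fold changes of 0.83 and 0.78. In all 3 genes every resistant line was above both controls. Of the clients, RPL3 was at -0.11 (FDR 0.353) and RPL23 at -0.58 (FDR 0.00702) in the early stage, neither called. PDCD2L was the lowest chaperone early at 0.02. The early call of RRS1 was kept under every alternative (FDR at most 0.00319), and those of GRWD1 and BCCIP were lost without the drug naive or the 25 nM line. All 3 late calls were lost in a fit of the 2 groups alone, without the drug naive line and without either late stage line, and those of GRWD1 and BCCIP also without the DMSO or the 25 nM line, that of GRWD1 also without the 15 nM line.

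Other mRNAs with a TOP element were read next. Of 11 translation factors none was called, with a median of -0.13 early and -0.16 late. EEF2, the translocation factor, was the lowest early at -0.36 (FDR 0.00700) and EEF1D the highest at 0.31. Of 7 other TOP mRNAs none was called, between NACA at -0.01 and BTF3, its partner in the nascent chain complex, at 0.33. Of 8 noncoding hosts of small nucleolar RNAs, SNHG12 rose in the early stage, from 17.3 and 17.1 CPM for the control lines to 38.3, 41.5 and 46.1 CPM (log2 fold change 1.28, FDR 0.00255), and was at 36.0 and 23.0 CPM late. SNHG8 was the lowest early at -0.52, and the list median was 0.21 early and -0.23 late.

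Of 7 RNA binding regulators of TOP mRNAs, 2 fell in the early stage, against 10.1% of all genes, and none was called in the late stage. LARP1B, a relative of LARP1, was at 72.8 and 66.4 CPM for the control lines, 45.6, 33.7 and 43.1 CPM early and 60.6 and 63.7 CPM late (early log2 fold change -0.77, FDR 0.00407). TIA1, a stress granule protein, was at 120.3 and 115 CPM for the control lines, 80.2, 68.4 and 76.5 CPM early and 85.9 and 89.4 CPM late (early log2 fold change -0.65, FDR 0.00188). Both were lowest in the early stage lines, and LARP1 itself was at 0.24 early and LARP4, the highest, at 0.36, neither called. The early call of LARP1B was lost without any 1 of the 7 libraries and in a fit of the 2 groups alone, that of SNHG12 without any 1 control or early stage line, and that of TIA1 without either control, the 15 nM or the 25 nM line. Of 8 kinases and modifiers of ribosomal proteins none was called, between RPS6KA3 at -0.47 and MINA at 0.53 early. Of 7 transcription factors tied to ribosomal protein genes none was called, with MYC highest at 0.23 and its partner MAX lowest at -0.50 early. GNB2L1, the older symbol of the ribosome-bound scaffold RACK1, was at -0.18 early.

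Properties of the genes were set beside the fold changes. Small nucleolar RNA genes lie within 29 of the members, none of which was called, and the other 50 held all 4 early calls (5.06% of members and 18.0% of all genes were called). With 4 calls no difference between these sets of members can be shown, and their early medians were -0.02 and 0.02. Across the 79 genes the early log2 fold change had a Pearson coefficient of 0.111 with the number of pseudogenes named after the gene, -0.0593 with log2 length and 0.0280 with the log2 control level per length. The late values were 0.141, -0.0175 and -0.0829. Of 1966 pseudogenes named after the members 30 were in the count table, with counts equal to 0.794% to 1.81% of those on the members, and none of the 11 that were tested was called. RPL23A, which was lower, has 95 pseudogenes, and RPL23AP53, the most abundant counted, was at 196 and 198 CPM for the control lines, 312, 140 and 235 CPM early and 445 and 273 CPM late. Exon bases are shared with another tested gene in 13 members, among them RPL4 with ZWILCH, RPL22 with RNF207 and RPL6 with PTPN11, and these reads cannot be assigned where strand was not used.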

How the data were processed

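RNA of 7 K562 lines (1 library each) was prepared with a directional kit after depletion of ribosomal RNA, sequenced as paired reads on a MiSeq, and aligned by the authors to hg19 with STAR. The authors deposited unnormalized counts per gene for 25702 gene IDs, made with featureCounts per the labels (strand and multimapping settings are not given in the sources used here). The authors' 2 comparison tables also hold their fold changes and test results. Only their symbols, chromosomes and gene lengths were used. No column of per-sample values was left unmapped.

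The filter asked for 10 CPM or more in 2 or more libraries, which left the 10452 genes of the deposited tables, with all 79 members among them by the rule that chose them. The main test was the quasi-likelihood F test of edgeR 4.0.16 (R 4.3.3) after TMM scaling, with 1 coefficient per group over all 7 libraries and Benjamini-Hochberg adjustment over all genes, called at FDR 0.005. The biological coefficient of variation, common to all tested genes, was 0.161. Log2 CPM used a prior count of 2. The fit was tested on simulated counts. Positions came from GENCODE 44 on GRCh37 (10154 genes placed), start sites from RefSeq on GRCh38.p14. Alternatives were RLE scaling, total counts, scaling without the members, other filters, DESeq2 1.42.0, limma 3.58.1 (voom) and leaving out each library. No 2 libraries of a group agreed within sampling noise (chi-square per degree of freedom 14.5 to 45.0).

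Members and lists were chosen with earlier results of these data known. Genes were named by rule: the 5 highest and 5 lowest members by fold change in each comparison and by level per length, every called member, all stalk, 5S, paralog and ubiquitin fusion genes, and the early extremes and called genes of the other lists. Start sites are shown for 10 of these. Genes named for their position, for an FDR under 0.05 or for a pseudogene were chosen after their values were seen. Some named genes are not reported here.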

Additional observations from a re-analysis of the deposited data

Results flagged for a closer look

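RPL34 was flagged because every early stage line lay below both controls and both late stage lines lay above them. It encodes a large subunit protein and was at 289 and 280 CPM for the control lines, 269, 193 and 224 CPM in the early stage and 299 and 299.6 CPM in the late stage. Late against early the log2 fold change was 0.39 (SE 0.13, FDR 0.0984 by edgeR's quasi-likelihood test), so the difference did not pass. Of all 10452 genes, 419 (4.01%) had early and late stage lines on opposite sides of the controls.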

How the results depend on the processing

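Of 84 fold changes followed, 70 spanned less than 0.25 (log2) over all alternatives, and among the widest were SNHG12 late (0.42 to 1.06), MINA early (0.26 to 0.87), RPL39L late (-0.98 to -0.48) and RPL26L1 late (0.32 to 0.80). The number of calls depended on the threshold, the tool and single libraries. At an FDR of 0.05, 4865 genes and 10 members were called early, 3542 and 14 late, and 1328 and 3 late against early. DESeq2 called 3548 genes and 9 members early, 2503 and 10 late, and 1135 and 2 late against early. In the late stage the members called were 1 with RLE scaling, 1 with total counts, 1 with scaling without the members, 1 with a filter of 1 CPM, 1 with no filter (1287 genes) and 0 in a fit of the 2 groups alone (257 genes). No filter gave 295 genes late against early. Leaving out 1 library at a time gave 208 to 2066 genes and 0 to 3 members early, 33 to 596 and 0 to 2 late, and 0 to 198 and 0 to 0 late against early, with the lowest early and late counts without the drug naive line and the 198 without the 50 nM line. The cause was not tested. With 1 library left out at a time, the member median stayed between -0.03 and 0.04 early and between -0.09 and -0.01 late. Late against early it stayed between -0.11 and -0.03 in the same fits. The median level per length was 339 with the longest transcript.

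The medians of the chromosome 17 segment (-0.56 to -0.47 early, -0.49 to -0.37 late) and of chromosome 15 (-0.60 to -0.49 late) kept their sign over 15 alternatives. These regions were chosen after seeing the data, as were the windows of 2 and 10 Mb, which gave Pearson coefficients of 0.413 and 0.392 early and 0.465 and 0.571 late. The 26 members with the fewest pseudogenes had medians of 0.03 early and -0.04 late.

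Signs changed for 11 values, none of them called. RPLP1 early was 0.0159 with total counts, 0.00049 with a filter of 1 CPM, 0.0105 with no filter and 0.0037 in a fit of the 2 groups, and NACA early 0.0064 with total counts and 0.0029 with no filter. RPL5 late was 0.0147 with no filter and PDCD2L early -0.0054 with limma voom. Leaving out 1 library, the early ranges were -0.12 to 0.13 for RPLP1, -0.0912 to 0.0771 for NACA, -0.19 to 0.27 for PDCD2L, -0.0108 to 0.0901 for RPL11, -0.23 to 0.0147 for RPL3, -0.0221 to 0.14 for RPL8 and -0.0218 to 0.0864 for RPLP0. The late ranges were -0.0404 to 0.0593 for RPL11, -0.12 to 0.0464 for RPL5 and -0.0374 to 0.0564 for RPLP2, and RPL39L late against early ranged from -0.0471 to 0.45.

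No paired analysis was possible because the labels give no replicate numbers shared between the groups. The biological coefficient of variation of 0.161 is common to all tested genes, and the median SE over members was 0.090 early and 0.098 late. With 2 or 3 lines a group, changes of the size seen in most members could not be told from the spread between lines.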
